A study of Gallus gallus with 12 samples.

Results

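Genes that were higher 24 h after lipopolysaccharide (LPS) than after saline, both in chicks raised without heat conditioning and in heat-conditioned chicks, were examined in hypothalamic microglia. The members were chosen on measured values. Counts were scaled to 1000000 per library (CPM), genes with at least 150 counts over the 12 libraries were kept, and the log2 ratio of LPS to saline was taken from group mean CPM with a pseudocount of 5. A gene was a member when this LPS difference reached 0.5 in both states. Of 11207 genes in the table, 3999 had the required counts and 57 of those were members, which is 1.43% of the genes that had the counts. All 57 also passed the filter on low counts of the test described later.

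Microglia are the resident macrophages of the brain. They recognise LPS, a component of the outer membrane of Gram-negative bacteria, through Toll-like receptor signalling. This activates NF-κB and induces genes for cytokines, chemokines, acute phase and antimicrobial proteins. The anterior hypothalamus, from which these cells came, takes part in the control of body temperature and in the fever response. An early heat challenge in chicks is known as a way to change later responses to heat, and the study crossed it with an immune challenge of the brain.

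Each library held RNA of microglia sorted by FACS from the pooled anterior hypothalami of 10 to 12 chicks (Gallus gallus) aged 11 days. The 4 groups of 3 libraries were saline Non-Cond, LPS Non-Cond, saline Cond and LPS Cond. Conditioned birds had been kept at 39°C for 24 h on day 3 of life, and non-conditioned birds had not. All birds, controls included, received an injection into the third ventricle on day 10, and no strain, sex or LPS dose is given in the sources used here. The replicates of a group are separate libraries by their labels.

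Library totals ran from 189180 to 963146 counts, so that 1 count corresponded to between 1.04 and 5.29 CPM. Saline Non-Cond replicate 2 was the shallowest library and saline Cond replicate 3 the deepest. The gene identifiers could not be matched to symbols (0 of 11207), so markers of microglia or of other cells could not be checked, and roles of single members are not given. Genes are numbered here from 1 to 57 by the smaller of their LPS differences, gene 1 having the largest. Identifiers are printed for genes 1 and 2 only. In pooled, sorted cells a change in RNA per cell and a change in the make-up of the sorted cells cannot be told apart.

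The choice of members fixed a higher level with LPS in both states, so the LPS differences are descriptions and were not tested as a finding. The median LPS difference of the members was 0.81 without conditioning (range 0.50 to 2.61) and 0.70 with it (range 0.50 to 2.10), on the log2(CPM + 5) scale. Over all 3999 genes the medians were 0.01 and -0.01. Most members lay near the threshold. In 37 of the 57 both differences were below 1, in 13 exactly 1 state reached 1, and in 7 both did. The 57 were 14.7% of the 387 genes that reached 0.5 without conditioning (9.68% of all kept genes) and 28.9% of the 197 that did so with it (4.93%).

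**Figure D1:**
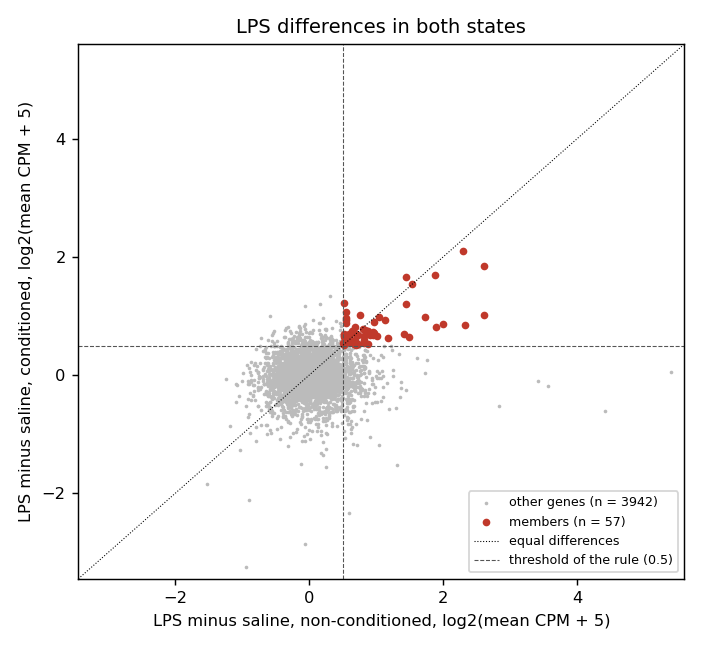
LPS difference without conditioning (horizontal axis) against that with conditioning (vertical axis), both as log2 of the ratio of group mean CPM with a pseudocount of 5, for the 57 members (red) and the other 3942 genes with at least 150 counts (grey). Dashed lines mark the threshold of 0.5, and 39 of the 57 members lie below the dotted line of equal differences.

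The largest response shared by both states was that of gene 1, ENSGALG00000027716.2. Its level without conditioning was 304, 497 and 653 CPM in the saline libraries (replicates 1 to 3) and 2757, 2366 and 2045 CPM in the LPS libraries. With conditioning it was 626, 546 and 584 CPM after saline and 3937, 1596 and 2037 CPM after LPS. The groups did not overlap in either state, and the lowest LPS library was 3.13 times the highest saline library without conditioning and 2.55 times with it. The ratio of group means was 4.93 without and 4.31 with conditioning, and the log2 fold changes in the edgeR fit were 2.22 ± 0.29 and 2.11 ± 0.29 (SE). LPS Cond replicate 1 stood well above the other two libraries of its group.

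Gene 2, ENSGALG00000020316.5, was low after saline and moderate after LPS. Without conditioning the saline libraries held 6.34, 21.1 and 9.80 CPM, from 2, 4 and 5 counts, and the LPS libraries 101, 110.5 and 93.1 CPM. With conditioning they held 22.04, 8.47 and 19.7 CPM after saline and 68.3, 79.2 and 70.8 CPM after LPS. Every LPS library lay above every saline library in both states, and the 3 LPS Cond libraries all lay below the 3 LPS Non-Cond libraries. The share of kept genes with the latter layout was not counted, so nothing is read from it. The LPS group means were 101 ± 8.71 CPM without and 72.8 ± 5.71 CPM with conditioning (SD, n = 3). The log2 fold change was 3.13 ± 0.38 without and 1.97 ± 0.31 with conditioning (SE), and the saline side of both rests on few counts.

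Genes 3 and 4 were the next in order. Gene 3 held 53.9, 37.0 and 49.0 CPM after saline and 132, 232 and 193 CPM after LPS without conditioning. In conditioned birds it held 49.2, 67.7 and 63.3 CPM after saline and 243, 141 and 232 CPM after LPS. Its ratios of group means, 3.98 and 3.42, came from groups that did not overlap. Gene 4 held 34.9, 74.0 and 43.1 CPM after saline against 217, 145 and 106 CPM after LPS without conditioning, and 39.0, 21.2 and 47.8 CPM against 105, 97.1 and 139 CPM with it. Its LPS difference was 1.53 in both states, again without overlap.

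In gene 5 the group mean without conditioning depended on 1 library. Its LPS Non-Cond libraries held 62.9, 236 and 76.5 CPM, and the lowest of these lay below the 66.6 CPM of saline Non-Cond replicate 1. Conditioned birds showed no overlap for this gene, with 62.7, 33.9 and 38.4 CPM after saline and 126, 198 and 133 CPM after LPS. Gene 6 had ratios of group means of 3.01 without and 2.48 with conditioning, and its groups did not overlap in either state.

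**Figure D2:**
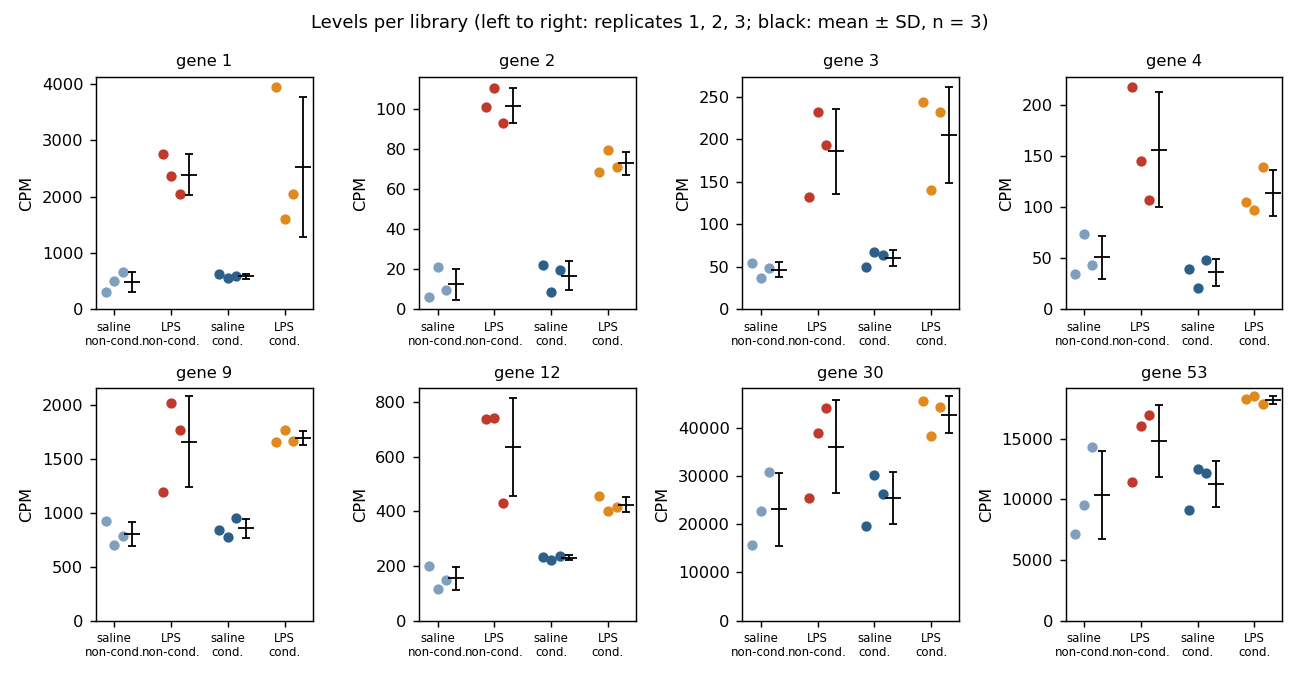
CPM in each library (points; replicates 1, 2 and 3 from left to right) with the group mean and SD (black, n = 3) for genes 1, 2, 3, 4, 9, 12, 30 and 53, each on its own axis from 0. Genes 1 to 4, 9 and 12 show no overlap of LPS with saline in either state, whereas genes 30 and 53 overlap without conditioning and not with it.

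Some members carried a large part of all counts. Genes 30 and 53 had the highest counts, and together they took 2.30% to 4.53% of a saline library and 3.69% to 6.39% of an LPS library. Whether reads of the same molecule were merged is not given, so these shares describe the libraries and not the number of transcripts. All 57 members together held 3.99% ± 1.10 of the counts in the saline Non-Cond group and 6.55% ± 1.32 in the LPS Non-Cond group (SD, n = 3). The conditioned groups held 4.37% ± 0.70 after saline and 7.52% ± 0.48 after LPS. Without genes 30 and 53 the other 55 members held 0.644% ± 0.055 and 1.45% ± 0.153 in non-conditioned birds and 0.703% ± 0.047 and 1.41% ± 0.133 in conditioned birds.

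Gene 30 held 15792, 22746 and 30979 CPM after saline and 25447, 38973 and 44088 CPM after LPS in non-conditioned birds. In conditioned birds the values were 19705, 30336 and 26323 CPM after saline and 45652, 38371 and 44361 CPM after LPS. LPS Non-Cond replicate 1 lay below saline Non-Cond replicate 3, and the conditioned groups were apart. The log2 fold change was 0.57 ± 0.22 without and 0.77 ± 0.22 with conditioning (SE). Gene 53 had the same layout, with 7165, 9525 and 14284 CPM against 11447, 16040.5 and 16975 CPM in non-conditioned birds. Its conditioned libraries held 9076, 12526 and 12137 CPM after saline and a narrow 18262, 18510.0 and 17869 CPM after LPS.

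Gene 9, also abundant, was separate in both states. Its levels were 926, 698 and 782 CPM after saline and 1193, 2018 and 1762 CPM after LPS without conditioning. With conditioning they were 836, 775 and 953 CPM after saline and 1652, 1763 and 1660.5 CPM after LPS. The log2 fold change was 1.005 ± 0.17 and 0.99 ± 0.17 (SE). In total 5 members, genes 1, 9, 10, 30 and 53, averaged at least 1000 CPM, which is 8.77% of the members against 3.88% of all kept genes. The median member averaged 73.1 CPM and the median kept gene 76.1 CPM.

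The level of a typical member by library followed the injection, which the choice of members favours. The median member stood at 37.0 to 50.7 CPM in the saline Non-Cond libraries and 42.3 to 51.9 CPM in the saline Cond libraries. After LPS it stood at 88.1 to 110.5 CPM without and 87.2 to 104 CPM with conditioning. For single members the separation was less complete. In 28 members every LPS library lay above every saline library without conditioning, where 5.9% of all kept genes did so, and in 43 with conditioning, where 7.73% did. Both held for 22 members (0.925% of kept genes) and neither for 8. The rule used these same libraries, so the levels and counts describe the members and nothing is read from them.

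**Figure D3:**
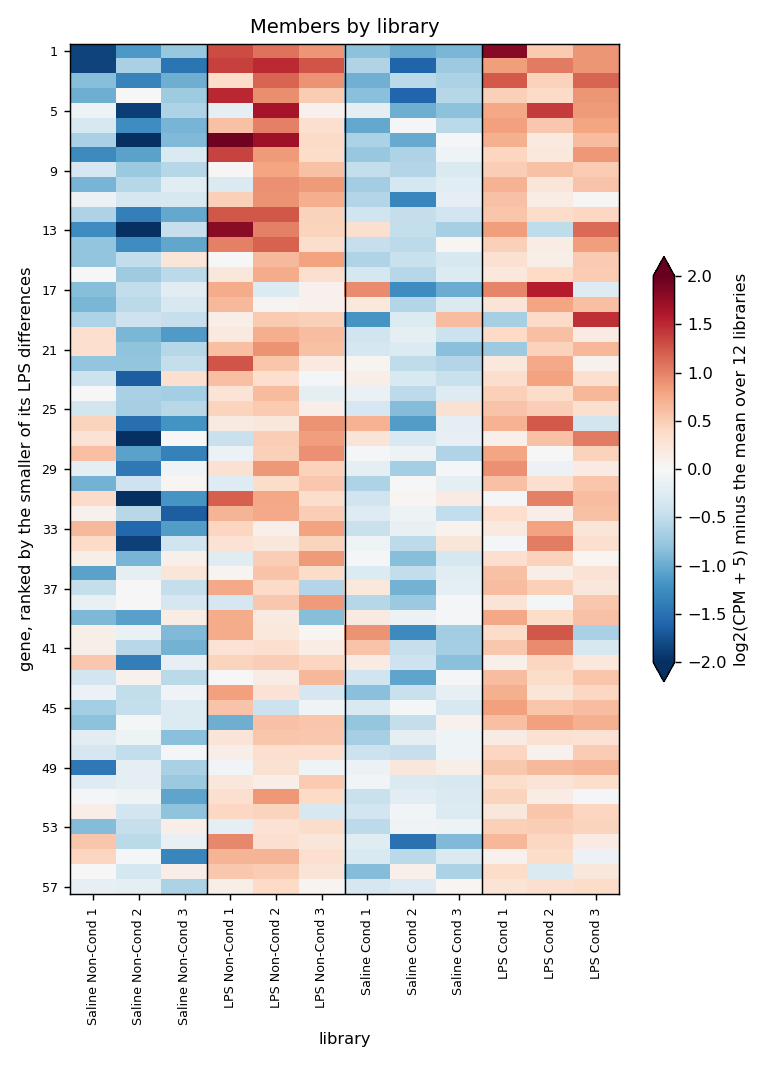
Level of each of the 57 members (rows, ranked by the smaller of their LPS differences) in the 12 libraries (columns), as log2(CPM + 5) minus the gene's mean over all libraries. The LPS libraries are mostly red and the saline libraries mostly blue in both states, with single libraries that depart from this, such as saline Cond replicate 1 in genes 17 and 40. The choice of members favours this layout, and nothing is read from it.

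The spread between pools differed by group. The median SD of a member's log2(CPM + 5) was 0.51 in the saline Non-Cond group, 0.37 in the LPS Non-Cond group, 0.31 in the saline Cond group and 0.24 in the LPS Cond group. All kept genes followed the same order at a lower level, with 0.33, 0.27, 0.24 and 0.21. The saline Non-Cond group included the shallowest library, and the part of depth in this order was not tested. In the edgeR fit, the median biological coefficient of variation was 0.196 for members (range 0.121 to 0.386) and 0.158 over the 3997 tested genes with at least 150 counts. A cut on differences of group means may favour genes that vary more between libraries, which was not tested. Nothing is therefore read from the higher spread of the members. In 18 members at least 1 saline library held 3 counts or fewer.

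The edgeR quasi-likelihood test over 5170 genes called 13 members higher with LPS without conditioning (adjusted p under 0.05), where 0.445% of all genes were called higher. With conditioning it called 6, where 0.116% were. The 6, genes 1, 2, 3, 4, 6 and 9, were all among the 13, the others being genes 7, 8, 12, 13, 14, 16 and 22. These are calls on the contrasts that chose the members, and nothing is read from them. Without conditioning the count was 7 without saline Non-Cond replicate 2 and 8 without LPS Non-Cond replicate 2. Over all genes and in either direction, 28 were called with every library, and 8 and 12 with these left out. With conditioning the count of members was 2 without saline Cond replicate 3, 3 without LPS Cond replicate 1 or 2 and 12 without saline Non-Cond replicate 3. Over all genes and in either direction, 9 were called with every library, and 2, 4, 4 and 22 with these left out. In the settings listed, the counts of members and of all genes moved in the same direction. The totals over all genes include the members, so nothing is read from this. It did not hold in every setting. For LPS without conditioning, leaving out saline Non-Cond replicate 3 gave 14 members, against 13 with every library. The genes called in either direction fell there from 28 to 19.

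The size of the LPS difference was compared between states next, as a description. It was smaller with conditioning in 39 members and larger in 18. The median difference between states was -0.10 on the log2(CPM + 5) scale, against -0.01 over all kept genes. A standard error of 0.19 was computed for such a difference from the spread, within groups, of the median member level per library. It was larger than the size of the median difference, so no direction is read from it. More kept genes reached the threshold of the rule without conditioning (387) than with it (197). The choice of members may therefore favour a smaller conditioned difference, which was not tested. For 38 members the states were within 0.25 of each other. In 13 members the conditioned difference was lower by more than 0.25, and in 6 it was higher by more than 0.25. The edgeR interaction, which compares the LPS effect between states, called 0 of 5170 genes (372 at an unadjusted p under 0.05, and 0 with DESeq2), and no p is given for members because both of its parts entered the rule.

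The 13 members with the smaller conditioned response had a median LPS difference of 1.49 without and 0.70 with conditioning. In all 13 the saline mean was higher in conditioned birds, and in 12 of 13 the LPS mean was lower. Some of these gaps were very small. The saline means of gene 51 were 111.05 CPM without and 111.14 CPM with conditioning. Picking genes by the gap between their differences favours such values, and the edgeR log2 fold changes of conditioning, with medians of 0.52 after saline and -0.36 after LPS, are given for size alone.

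Gene 12 was the most abundant of these 13, with a mean of 361 CPM over all libraries. It held 199.7, 116 and 149 CPM after saline and 736, 741 and 429 CPM after LPS without conditioning. Conditioned birds held 234, 220.1 and 236 CPM after saline and 455, 402 and 414 CPM after LPS. LPS and saline did not overlap in either state, and all 3 saline Cond libraries lay above all 3 saline Non-Cond libraries. For the order of the saline groups the share of kept genes was not counted, so nothing is read from it. The ratio of group means was 4.10 without and 1.84 with conditioning, and the log2 fold changes differed by -1.09 ± 0.29 (SE).

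Gene 7 showed the widest gap, with saline Non-Cond values that came from 9, 1 and 12 counts. It held 28.5, 5.29 and 23.5 CPM after saline and 198, 166 and 63.2 CPM after LPS without conditioning, against 28.8, 21.2 and 46.7 CPM and 81.1, 55.5 and 75.3 CPM with it. The separation held in both states, but LPS Non-Cond replicate 3 lay within the range of the LPS Cond libraries. The log2 fold changes of gene 7 differed by -1.70 ± 0.58 (SE). Gene 13 had 25.4, 10.6 and 47.0 CPM against 245, 139.7 and 93.1 CPM without conditioning, and with it 84.8, 46.6 and 40.5 CPM against an overlapping 124, 45.6 and 153 CPM. Its saline Non-Cond values came from 8, 2 and 24 counts. Gene 14 went from 31.9 ± 5.83 to 133 ± 38.6 CPM without and from 55.8 ± 13.8 to 101 ± 25.7 CPM with conditioning (SD, n = 3).

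The 6 members with the larger conditioned response, genes 17, 43, 44, 45, 46 and 54, had a median LPS difference of 0.55 without and 0.99 with conditioning. Gene 46 held 91.9, 164 and 137 CPM after saline and 81.8, 252 and 246 CPM after LPS without conditioning. With conditioning it held 94.9, 119 and 177 CPM after saline and 256, 299 and 275 CPM after LPS. LPS Non-Cond replicate 1 lay below all 3 saline Non-Cond libraries for this gene, and the conditioned groups did not overlap. Gene 17 overlapped in both states, with 210.2, 42.3 and 50.9 CPM after saline and 216, 325 and 88.6 CPM after LPS in conditioned birds.

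Members also differed in how they varied among pools of the same group, which the rule did not use directly. The deviations of each gene's log2(CPM + 5) from its group means were correlated over the 12 libraries, as a description of genes that share libraries, depth and scaling. The median correlation over the 1596 member pairs was 0.06, and 24 pairs reached 0.8. The share of pairs of all kept genes that reached 0.8 was not counted, so nothing is read from this number. Genes 10, 15, 30 and 53 formed pairs with a correlation from 0.808 to 0.954, the highest being that of genes 30 and 53. All 4 were lowest in replicate 1 of the saline Non-Cond, LPS Non-Cond and saline Cond groups, where 25.6%, 39.1% and 46.4% of all kept genes were lowest as well. The 4 were chosen after their values were seen, from pairs that reached 0.8. A shared lowest library follows from that choice, and nothing is read from it. Gene 10 held 770.4, 988 and 1252 CPM after saline and 1193, 2779.8 and 2653 CPM after LPS in non-conditioned birds, so that its LPS Non-Cond replicate 1 overlapped with saline. Gene 15 held 72.9, 89.9 and 153 CPM against 129, 205 and 229 CPM in the same groups. Whether any of these genes share reads as near-identical copies was not tested.

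Genes 7, 8, 12, 13 and 14, chosen after their values were seen, correlated at 0.288 to 0.893. They belong to the 13 members with the smaller conditioned response, over which the pairs had a median correlation of 0.18 and ranged from -0.75 to 0.89. All 5 were lowest in replicate 3 of the LPS Non-Cond group and in replicate 2 of the LPS Cond group, where 33.5% and 37.5% of all kept genes were lowest. Because the choice followed their values, nothing is read from these shared lowest libraries. Gene 1, the strongest member, had correlations of 0.34 with gene 30, 0.31 with gene 53, 0.25 with gene 10 and -0.38 with gene 9. Gene 9, itself abundant, correlated at 0.20 with gene 30, 0.21 with gene 53 and 0.57 with gene 10.

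**Figure D4:**
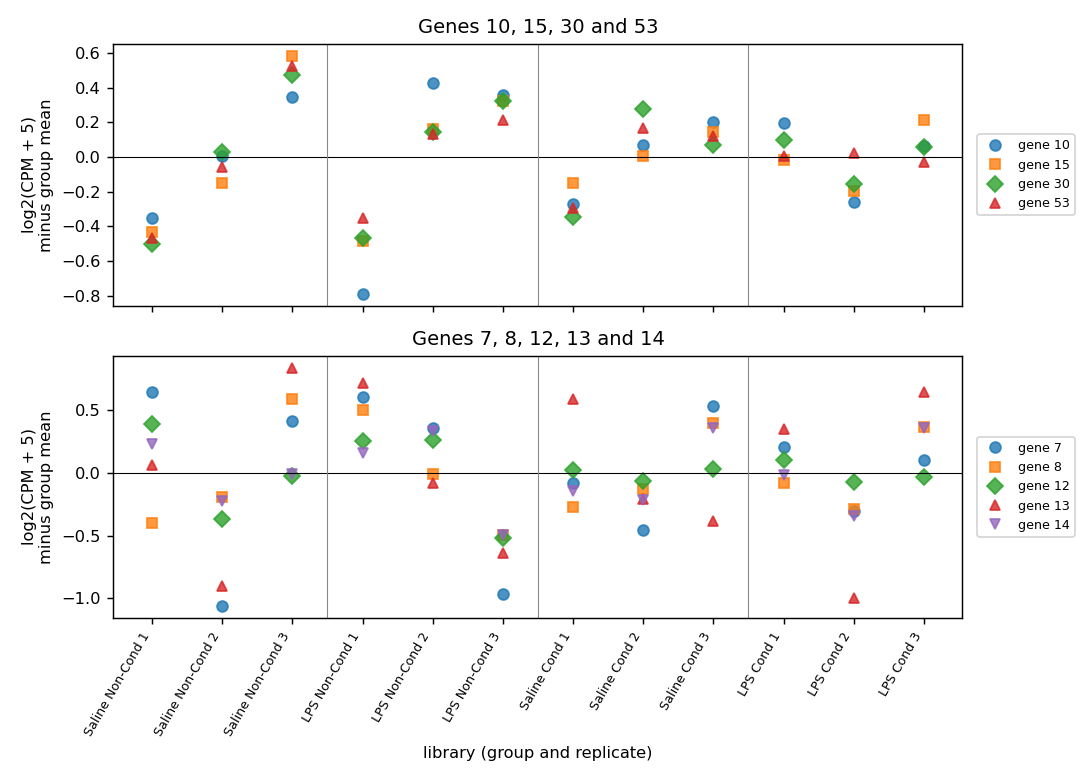
Deviation of log2(CPM + 5) from the group mean in each of the 12 libraries (columns, by group and replicate) for genes 10, 15, 30 and 53 (top) and genes 7, 8, 12, 13 and 14 (bottom). The upper genes are lowest together in replicate 1 of the first 3 groups shown, and the lower genes are lowest together in LPS Non-Cond replicate 3. Both sets were chosen after their values were seen.

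Heat conditioning itself, averaged over saline and LPS, is a contrast balanced against both LPS contrasts of the rule, and it was tested in the members. That balance holds for groups of equal spread. The median SD of a member ran from 0.24 in the LPS Cond group to 0.51 in the saline Non-Cond group. The choice of members may therefore still shift this contrast, which was not tested. No member passed (0 of 57 with edgeR, smallest adjusted p = 0.824), where 0.0193% of the 5170 genes did. At an unadjusted p under 0.05 there was 1 member, 1.75% of the 57, against 4.66% of all genes, and DESeq2 called 0 members. The median log2 fold change, conditioned over non-conditioned, was 0.10 in the members (interquartile range -0.05 to 0.20) and -0.01 over all genes (-0.15 to 0.14). The members' median was 0.025 without saline Non-Cond replicate 2 and 0.031 without saline Cond replicate 1, within 0.025 to 0.12 over all libraries left out in turn, so its size rests on single libraries. With all libraries it was above 0 in 36 members and below 0 in 21, against 47.7% of all genes above 0. The median SE of a member was 0.23, so a difference of that size was not resolved gene by gene.

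Gene 49 was the member at an unadjusted p under 0.05. It held 12.7, 37.0 and 25.5 CPM in saline Non-Cond, 40.9, 53.6 and 39.9 CPM in LPS Non-Cond, 39.0, 50.8 and 46.7 CPM in saline Cond and 64.0, 69.3 and 70.8 CPM in LPS Cond libraries. The level was higher in every conditioned library than in every non-conditioned library of the same injection. The gene was picked by its unadjusted p, and the share of kept genes with this layout was not counted, so nothing is read from it. Its saline Non-Cond values came from 4, 7 and 13 counts. Its log2 fold change for conditioning was 0.72 ± 0.23 (SE), with an edgeR adjusted p of 0.824. For gene 1 the same contrast gave 0.15 ± 0.20 and for gene 2 0.12 ± 0.26 (SE), both with an edgeR adjusted p of 0.999.

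**Figure D5:**
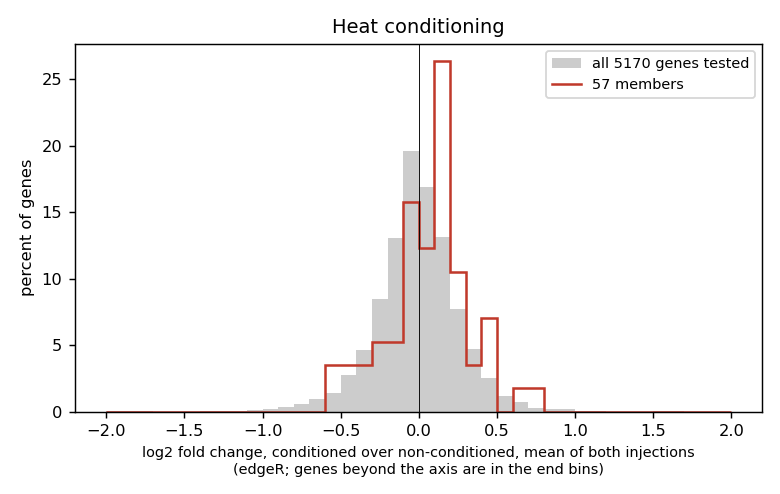
Percent of genes (vertical axis) by log2 fold change of heat conditioning averaged over both injections (horizontal axis, edgeR), for the 57 members (red line) and all 5170 tested genes (grey). The median is 0.10 for the members, or 0.025 without saline Non-Cond replicate 2, and -0.01 for all genes, and no member passed the test.

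Within each injection the libraries also served the rule, so the choice of members can shift these p-values. The counts of members that follow are descriptions, and nothing is read from their distance to the shares of all genes. After saline 0 of 57 members were called, as were 0.0% of all genes, with 4 members at an unadjusted p under 0.05 (7.02%, against 4.95% of all genes) and 0 called with DESeq2. After LPS 0 of 57 were called, again beside 0.0% of all genes, with 3 members at an unadjusted p under 0.05 (5.26%, against 6.58% of all genes) and 0 called with DESeq2. The median log2 fold change of conditioning was 0.13 after saline and 0.04 after LPS in the members, against -0.02 and 0.00 over all genes. With a library left out it ran from 0.073 (without saline Cond replicate 1) to 0.23 (without saline Non-Cond replicate 1) after saline, and was 0.082 without saline Non-Cond replicate 2 and 0.089 without saline Cond replicate 3. After LPS it ran from -0.023 (without LPS Cond replicate 2) to 0.12 (without LPS Non-Cond replicate 2), and it was also below 0 without LPS Non-Cond replicate 3 (-0.0042), so no direction is given. It was 0.012 without LPS Non-Cond replicate 1 and 0.020 without LPS Cond replicate 1.

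At the threshold, the 4 members just inside had a smaller LPS difference between 0.502 and 0.517, and the 4 genes just outside between 0.482 and 0.497. The latter included a gene with 1.22 without and 0.491 with conditioning. A gene just inside had 0.517 without and 1.22 with conditioning.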

How the data were processed

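The members and all lists here were chosen with earlier results of these data known. The table deposited by the authors gives raw counts for each gene, per the file headers, from 3′-end bulk MARS-seq libraries (15 ng of RNA, 100 bp single reads, per the labels' protocols). Build galGal5 and the tools HTSeq, STAR, cutadapt and DESeq2 appear in the submitters' processing notes. Their versions, the annotation, any molecular identifiers and the strand setting are not given in the sources consulted, so overlapping, antisense or near-identical genes are uncertain. The 12 columns of normalized counts were not used.

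CPM used column totals. Tests were run in R 4.3.3 with edgeR 4.0.16 (glmQLFit and glmQLFTest, 2-sided, TMM, filterByExpr with a minimum count of 10, 12 libraries in 1 fit with 1 mean per group, Benjamini-Hochberg over 5170 genes), checked on simulated counts. SE is the log2 fold change divided by the root of F. Alternatives were DESeq2 1.42.0, RLE factors, other filters, a replicate block and leaving out each library. The 26 planned gene lists could not be applied, since the reference table of 25635 chicken genes (GRCg7b) gives no Ensembl identifier. Members with at least 10 counts in each LPS library were ranked by the smaller LPS difference for the 2 printed identifiers. Other genes described were chosen after their values were seen. Chi-square per degree of freedom between replicates was 1.83 to 7.66, and no pair was treated as a duplicate. P-values compare differences between group means with the spread between libraries, which are separate by their labels.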

Additional observations from a re-analysis of the deposited data

How the results depend on the processing

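Alternatives for the difference of the LPS effect between states were chosen after seeing the data. The 57 members became 97 with 50 counts over 12 libraries, 22 with 500 counts and 7 with both differences at least 1. Leaving out a library gave 54 to 70, and 44 to 52 of the 57 were then members. Of the 57, 19 stayed members without any 1 of the 12 libraries, genes 1 to 16 among them. Median instead of mean CPM gave 74 genes with 43 of the 57. The median difference between states was -0.20 to -0.03 with a library left out. Its standard error, from the spread of library medians within groups, was 0.19. Members called for conditioning numbered 0 in every alternative except no filter on low counts. There 1 member was called for the averaged contrast, beside 37 genes in all, and 2 after LPS, beside 64. Members called higher with LPS, 13 without and 6 with conditioning, numbered 21 and 17 with no filter. Genes called in either direction, 28 and 9 over all genes, then numbered 80 and 65. Leaving out a library gave 7 to 17 (7 without saline Non-Cond replicate 2, 8 without LPS Non-Cond replicate 2) and 2 to 12 (2 without saline Cond replicate 3, 3 without LPS Cond replicate 1 or 2, 12 without saline Non-Cond replicate 3). The cause was not tested.

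Conditioning in genes 1 and 2 changed sign with a library left out. For ENSGALG00000027716.2 the log2 fold change ran from -0.071 to 0.36 for the averaged contrast, -0.054 to 0.61 after saline and -0.38 to 0.33 after LPS, and for ENSGALG00000020316.5 from -0.017 to 0.31 for the averaged contrast. The LPS call of ENSGALG00000020316.5 in conditioned birds ended without saline Cond replicate 3 (edgeR adjusted p = 0.056). DESeq2 gave no adjusted p for this gene in that contrast, so the call was not checked with it. Replicate numbers showed at most a weak pairing of the libraries: same-number deviations correlated at -0.117 to 0.155, and 3 of 18 pairs exceeded 0.1. Between LPS Non-Cond and saline Cond, replicates 1 to 3 each correlated best with their own number, at 0.095, 0.113 and 0.090. With a replicate block 13 and 7 members were called for LPS and 0 for conditioning in each of its 3 contrasts. Of the 18 pairs, 8 correlated best within their own number.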

Other observations

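Genes 17, 26, 40 and 41 were chosen after their values were seen, from the pairs of members with the highest correlations, so what follows is a description with no test. In their deviations from group means over the 12 libraries of all 4 groups, genes 40 and 41 correlated at 0.904, genes 17 and 40 at 0.845 and genes 26 and 41 at 0.802. The other pairs among them were lower, at 0.526 for genes 17 and 26, 0.687 for genes 17 and 41 and 0.732 for genes 26 and 40. In gene 17 saline Cond replicate 1 held 210.2 CPM, above the 42.3 and 50.9 CPM of the other two libraries and close to the 216 CPM of LPS Cond replicate 1. Gene 40 held 114, 21.2 and 34.3 CPM in saline Cond replicates 1 to 3, and 76.9, 145 and 35.4 CPM in LPS Cond replicates 1 to 3. Its saline Cond replicate 1 was the highest library of that group and lay above LPS Cond replicates 1 and 3. LPS Cond replicate 2 was the highest and replicate 3 the lowest library of that group in both genes. Of all kept genes, 27.7% were highest in the former and 31.1% lowest in the latter. A shared highest or lowest library follows from the choice of these genes, and nothing is read from it.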
